A study of Mus musculus with 6 samples.

Results

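The genes described here are 10 members of the p53 pathway and the cell cycle inhibitors, namely Trp53, Mdm2, Cdkn1a, Cdkn1b, Cdkn2a, Ccng1, Gadd45a, Sesn2, Bax and Bbc3. They were matched by symbol, and all 10 were found once each among the 54752 genes counted. The libraries held RNA of the entire right hippocampus from 6 male wild-type C57BL/6 mice (C57BL/6 J in the study's methods), 14 weeks old, of which 3 had sham surgery (Sham) and 3 had bilateral carotid artery stenosis (BCAS). BCAS mice carried a wire microcoil around each common carotid artery, with the narrower coil on the right side, which lowers blood flow to the forebrain, and Sham mice had the operation without coils. Tissue was taken 3 weeks after surgery from animals that survived it, and each library came from 1 mouse.

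p53, the product of Trp53, is a transcription factor that accumulates after DNA damage and other stress and switches on genes that halt the cell cycle, repair DNA or start apoptosis. Its target Mdm2 encodes the ubiquitin ligase that marks p53 for degradation, so the level of the protein is set largely after transcription. The inhibitors of cyclin-dependent kinases (CDKs) hold cells before DNA replication, keep neurons out of the cycle and, in the case of p16INK4a and p21, are widely used as marks of senescent cells.

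The Sham libraries held 34301711 to 35607098 counts and the BCAS libraries 29652456 to 31892083. Levels are given as CPM (counts scaled to a common library size) after TMM normalisation, and 3 counts, taken as the limit of detection, equal 0.0874 to 0.0994 CPM. The test was edgeR's quasi-likelihood test, run over the 18617 genes that passed its filter on low counts. A gene rose or fell where the Benjamini-Hochberg adjusted p was under 0.05, and it was a differentially expressed gene (DEG) where the log2 fold change was also above 1 or below -1. The p-values measure the spread between mice of a group.

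All 10 members passed the filter, Cdkn2a only through the BCAS libraries, so that its call is no support for a difference. Of the 10, 4 rose (Trp53, Cdkn1a, Cdkn2a and Gadd45a) and 0 fell, or 3 of 9 rose without Cdkn2a, with 18.0% of all tested genes rising, 13.2% falling and 31.3% called either way. Cdkn1a and Cdkn2a were also up-regulated DEGs, as were 8.47% of all tested genes, and no member was among the 0.999% that were down-regulated DEGs. The median log2 fold change of the members was 0.23, against 0.018 over all tested genes, and it is the same with Cdkn2a set to its lower bound. In 5 members (the 4 that rose and Bax) every BCAS mouse was above every Sham mouse, a separation that 25.3% of tested genes showed in this direction, 22.7% in the other and 48.0% in either. BCAS mouse 3 had the highest level of all 6 mice in 5 members, and in 27.2% of tested genes.

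**Figure D1:**
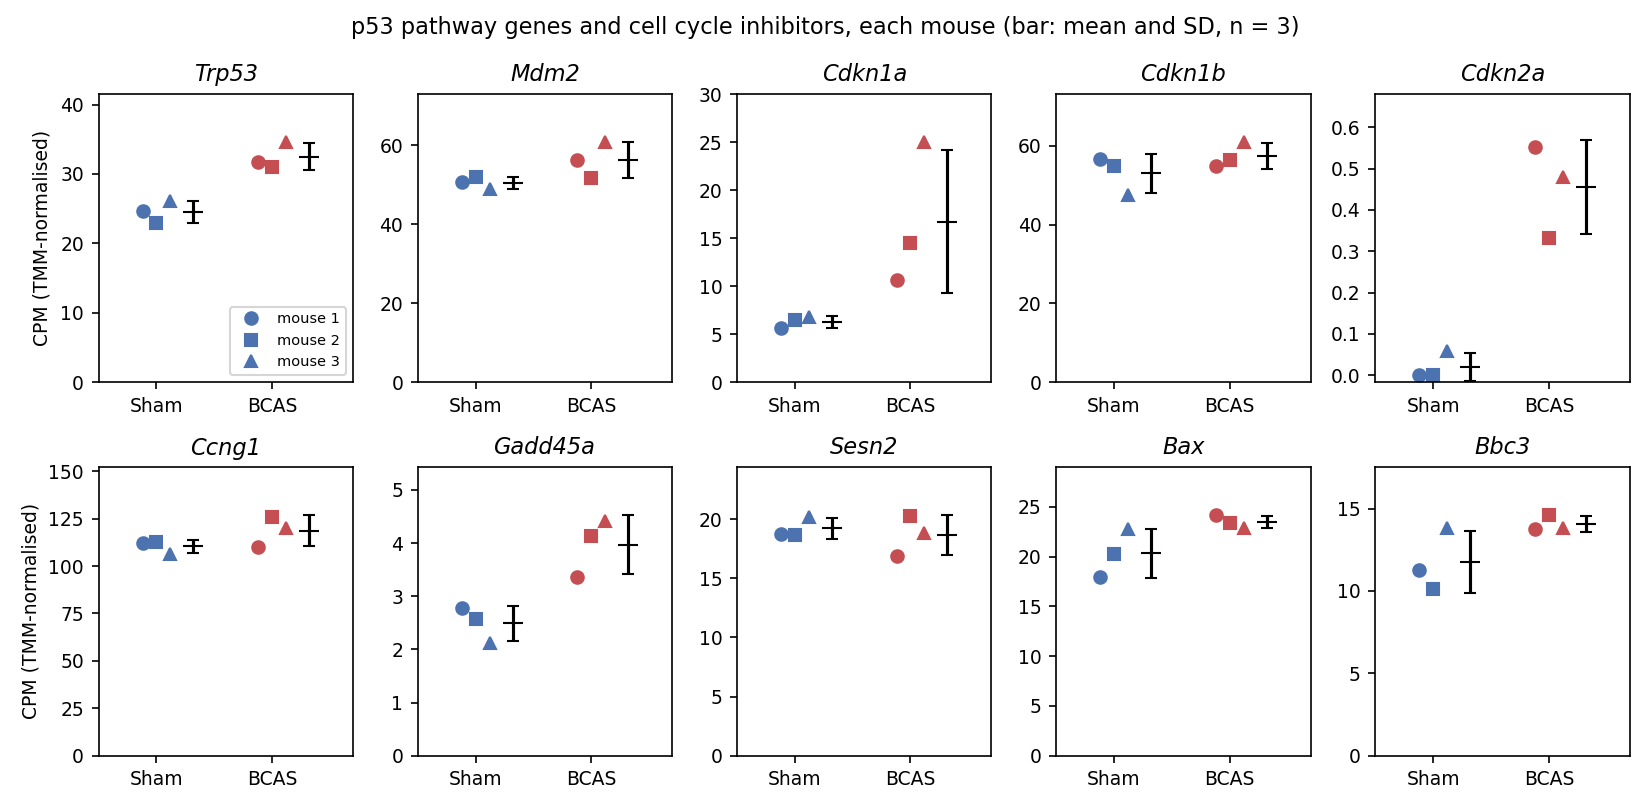
Level of each member in each mouse, in TMM-normalised CPM on a linear axis; symbols mark the mouse, and the bars beside them give the mean and SD of 3 mice. Trp53, Cdkn1a, Cdkn2a, Gadd45a and Bax show no overlap between groups, and Cdkn1a spreads from 10.6 to 25.1 CPM among BCAS mice.

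Promoter sequences are shown first, since p53 acts by binding pairs of a 10-base half-site. RefSeq windows of 250 bases before to 50 bases after the start (GRCm38.p6, 14 windows for the 10 members) were searched for the p53 half-site, whose pattern is its own reverse complement, so that both strands were covered. At least 1 exact half-site was found in 6 members, in 3 of the 4 that rose and in 3 of the 6 that did not pass the test. Over all 32851 windows in the reference, 8.36% held one. Several members were listed because they are known p53 targets, so this share is no result of these libraries. No half-site lay in the windows of Cdkn1b, Cdkn2a, Bbc3 and Sesn2, which says only that these letters are not in these windows. The Gadd45a stretch lies before the RefSeq start but wholly inside an annotated GENCODE exon of the gene, and is therefore cut to 30 bases. Each sequence below is written 5′ to 3′ on the strand of its gene, and capitals mark half-sites, including the partner with at most 1 mismatch over both where one lies 0 to 13 bases away.
Trp53, chr11:69580259-69580318, plus strand: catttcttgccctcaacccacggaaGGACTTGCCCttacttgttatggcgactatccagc
Cdkn1a, chr17:29090897-29090956, plus strand: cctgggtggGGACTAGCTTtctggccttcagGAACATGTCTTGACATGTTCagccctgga
Gadd45a, chr6:67037428-67037457, minus strand: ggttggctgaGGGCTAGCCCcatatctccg
Mdm2, chr10:117710910-117710969, minus strand: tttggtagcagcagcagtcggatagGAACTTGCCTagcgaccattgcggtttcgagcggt
Bax, chr7:45467071-45467129, minus strand: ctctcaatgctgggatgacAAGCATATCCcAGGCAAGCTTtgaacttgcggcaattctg
Ccng1, chr11:40755442-40755501, minus strand: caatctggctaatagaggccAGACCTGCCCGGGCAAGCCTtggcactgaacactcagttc

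The Cdkn1a window belongs to the upstream start of the gene, and its second window held no half-site. It carried 2 exact half-sites separated by 12 bases, and the second of them adjoins a partner with 1 mismatch. A pair without mismatch stood in 24 windows of the reference, or 0.0731%, and among the members in Cdkn1a alone. With at most 1 mismatch over both half-sites, pairs were found in Cdkn1a, Bax and Ccng1, and in 1.09% of all windows. A match is a description of sequence, and binding of p53 was not measured.

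Trp53 (ENSMUSG00000059552.13, chr11:69580359-69591873, plus strand, mm10) was measured at 24.7, 22.9 and 26.1 CPM in Sham mice 1, 2 and 3. The BCAS mice had 31.7, 31.0 and 34.7 CPM. Every BCAS mouse lay above every Sham mouse, and both groups were tight, with means of 24.6 ± 1.58 and 32.5 ± 1.94 CPM (SD, n = 3). Trp53 rose by 0.40 on the log2 scale (SE 0.094, 95% interval 0.19 to 0.62), a ratio of means of 1.32 (edgeR adjusted p = 0.0124). Without Sham mouse 2 the log2 fold change was 0.35 and missed the threshold (edgeR adjusted p = 0.0571). In bulk tissue, more transcript per cell and more cells of a type that expresses the gene cannot be told apart, for Trp53 and for every gene below.

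Mdm2 (ENSMUSG00000020184.15, chr10:117688875-117710758, minus strand), the negative regulator and target of p53, was at 50.7, 51.8 and 48.8 CPM in Sham mice. In BCAS mice 1, 2 and 3 it was at 56.2, 51.5 and 60.9 CPM. BCAS mouse 2 lay within the Sham range, so the groups overlapped. The log2 fold change was 0.16 (SE 0.081) with an interval of -0.028 to 0.34, and Mdm2 did not pass the test (edgeR adjusted p = 0.177). Within each mouse, the log2 ratio of Mdm2 to Trp53, from log2(CPM + 0.5), was 1.02 ± 0.13 in the Sham group and 0.78 ± 0.050 in the BCAS group (SD, n = 3). All 3 BCAS mice had a lower ratio than any Sham mouse, by 0.24 on the log2 scale. Its exact two-sided permutation p was 0.1, the smallest that 3 mice against 3 can give, and so was the adjusted p over the 4 ratios tested here.

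Cdkn1a (ENSMUSG00000023067.14, chr17:29090976-29100727, plus strand) encodes p21, the CDK inhibitor through which p53 halts the cycle. Its level was 5.60, 6.52 and 6.79 CPM in Sham mice 1, 2 and 3, and 10.6, 14.5 and 25.1 CPM in BCAS mice 1, 2 and 3. All BCAS mice exceeded all Sham mice, and BCAS mouse 3 stood well above the other BCAS mice. Group means were 6.30 ± 0.621 and 16.7 ± 7.48 CPM (SD, n = 3), a ratio of 2.66, and the coefficient of variation was 9.86% in Sham and 44.6% in BCAS mice. Cdkn1a rose by 1.41 on the log2 scale (SE 0.28, interval 0.77 to 2.05; edgeR adjusted p = 0.00619). Without BCAS mouse 3 it still rose (edgeR adjusted p = 0.00545), and the log2 fold change of 0.99 was then just under the DEG limit. A predicted gene on the opposite strand, AC167363.2, shares 273 exonic bases with Cdkn1a. That gene had 0 to 8 counts per library against 190 to 783 for Cdkn1a. Strand was ignored in counting, so the reads of the shared bases cannot be told apart.

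Summed markers of several cell types also differed between the groups. The summed CPM of 8 microglia markers was 309 to 321 in the Sham group and reached 1826, 1955 and 2946 in BCAS mice 1, 2 and 3, which is the same order of BCAS mice as for Cdkn1a. The sums of the infiltrating cell and meningeal fibroblast markers had this order too, and those of the pyramidal and granule cell markers the reverse order. Those of the astrocyte, oligodendrocyte lineage, endothelial, neuron and choroid plexus markers had neither order. Among BCAS mice the astrocyte sum was highest in mouse 1, where Cdkn1a was lowest. All 8 microglia markers and all 5 astrocyte markers rose, and 6 of 7 neuron markers fell (3 without Sham mouse 1 or without Sham mouse 2). The 5 astrocyte markers summed to 1358 to 1498 CPM in Sham and 5322 to 5829 in BCAS mice, and the 7 neuron markers to 9979 to 10399 and 5181 to 7557 CPM, lowest in BCAS mouse 3. Of 6 markers of hippocampal pyramidal and granule cells, which summed to 1637 to 1815 CPM in Sham and 895 to 1321 CPM in BCAS mice, 3 fell (Fibcd1, Grik4 and Nrgn; 1 gene without Sham mouse 2 or without Sham mouse 3). Groups overlapped in Wfs1, Prox1 and C1ql2, with log2 fold changes of -0.30, -0.14 and -0.055 that did not pass the test (edgeR adjusted p = 0.159, 0.699 and 0.901). Markers of infiltrating myeloid and lymphoid cells summed to 1.47 to 2.45 CPM in Sham and 9.07 to 15.9 CPM in BCAS mice. Of the 7 tested, 4 rose, but Ly6c2, Cd3e and Cd8a passed the filter only through the BCAS libraries, and Ccr2 was the one that rose among the other 4. Endothelial markers summed to 155 to 177 CPM in the Sham group and 224 to 243 CPM in the BCAS group (3 of 4 rose), meningeal fibroblast markers to 59.7 to 128 and 115 to 184 CPM (2 of 3 rose, and 1 in each fit without 1 mouse other than BCAS mouse 2), and oligodendrocyte lineage markers to 4173 to 5059 and 4858 to 7262 CPM (1 of 6 rose, and 2 without BCAS mouse 2), highest in BCAS mouse 3. Every marker had counts in at least 1 library. The part of these cell types in the change of Cdkn1a, Trp53, Gadd45a and Cdkn2a was not tested.

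**Figure D2:**
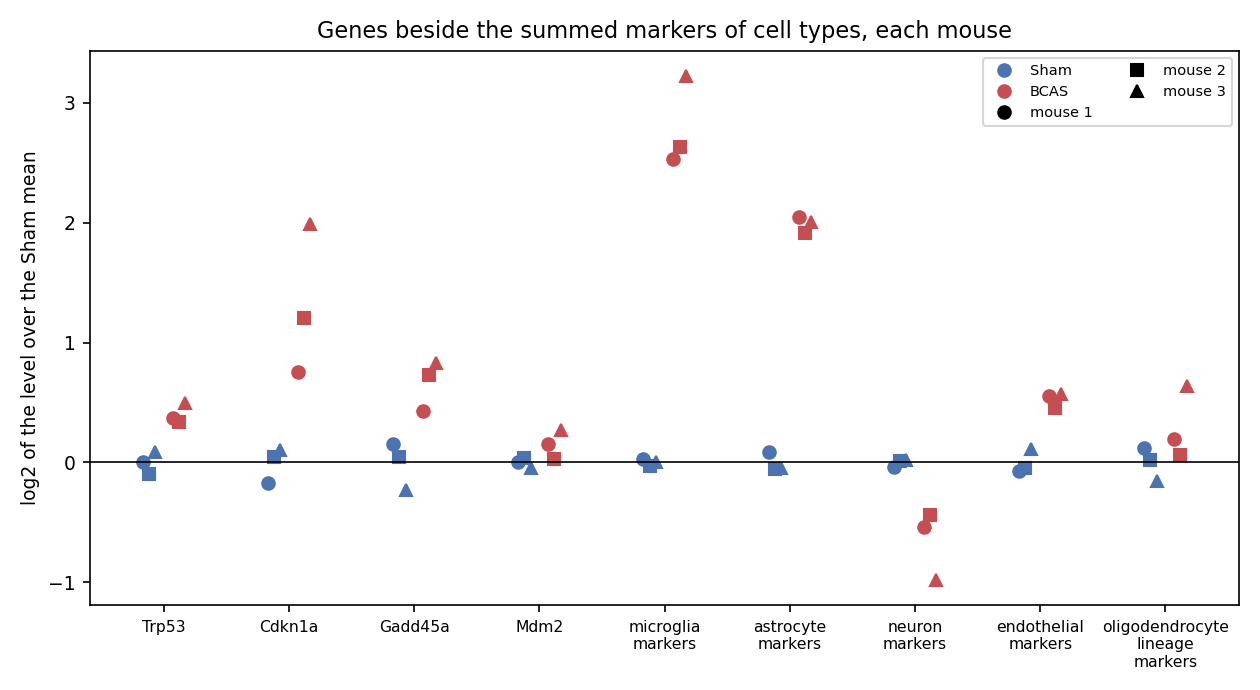
log2 of the level over the Sham mean in each mouse, for 4 members and for the summed CPM of 5 marker lists; colours mark the group and symbols the mouse. In Cdkn1a and in the microglia sum, BCAS mouse 3 is highest and BCAS mouse 1 lowest among BCAS mice, and the neuron sum is lowest in BCAS mouse 3.

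The tested genes whose profile over the 6 mice lay nearest to Cdkn1a were Alox5ap, Grap and Ttc7, at Euclidean distances of 0.226, 0.235 and 0.308 between centred log2(CPM + 0.5) values, among 15629 genes of at least 1 CPM. Alox5ap, the 5-lipoxygenase activating protein of leukotriene synthesis, went from 1.15, 1.32 and 1.31 CPM in Sham mice to 2.71, 4.01 and 6.25 CPM in BCAS mice. Grap, an adaptor of leukocyte receptor signalling, went from 4.75 to 5.04 CPM in Sham mice to 9.04, 11.5 and 20.1 CPM in BCAS mice. These genes share with Cdkn1a both the separation of the groups and the order of the BCAS mice. The likeness was selected on the same 6 libraries and carries no test.

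Cdkn1b (ENSMUSG00000003031.14, chr6:134920401-134925513, plus strand) encodes p27, the inhibitor of the same family that keeps differentiated cells quiescent. It had 56.6, 55.0 and 47.4 CPM in Sham mice and 54.8, 56.3 and 61.1 CPM in BCAS mice. The groups overlapped, and the log2 fold change of 0.11 (SE 0.089, interval -0.087 to 0.32) did not pass the test (edgeR adjusted p = 0.366). The log2 ratio of Cdkn1a to Cdkn1b within a mouse was -2.98 ± 0.25 in Sham and -1.83 ± 0.53 in BCAS mice (SD, n = 3). It was higher in all 3 BCAS mice, by 1.14 on the log2 scale, with the smallest exact permutation p of 0.1.

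Cdkn2a (ENSMUSG00000044303.6, chr4:89274471-89294653, minus strand) holds the transcripts of p16INK4a, which inhibits CDK4 and CDK6, and of p19ARF, which inhibits MDM2. The counts per gene do not separate these transcripts. Sham mice 1, 2 and 3 had 0, 0 and 2 counts, all at or under the limit of 3 counts. In BCAS mice 1, 2 and 3 there were 18, 10 and 15 counts, or 0.554, 0.331 and 0.480 CPM, all above the limit. Against the mean limit of the Sham libraries, Cdkn2a was at least 5.14-fold higher in BCAS mice. It passed the filter only because it was detected in BCAS mice, and it was the lowest member in both groups, so this value rests on 43 counts in all BCAS libraries, and no p-value is given for it.

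Ccng1 (ENSMUSG00000020326.7, chr11:40748552-40755311, minus strand), a cyclin induced by p53 that recruits a phosphatase to MDM2, was the most abundant member. Sham mice had 112, 113 and 106 CPM, and BCAS mice had 110.0, 126 and 120 CPM. BCAS mouse 1 lay within the Sham range. With a log2 fold change of 0.11 (SE 0.075, interval -0.064 to 0.28), Ccng1 did not pass the test (edgeR adjusted p = 0.321).

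Gadd45a (ENSMUSG00000036390.8, chr6:67035096-67037457, minus strand), a stress-induced gene that acts in growth arrest and DNA repair, was low in all mice. It had 2.77, 2.57 and 2.13 CPM in Sham mice, from 94, 86 and 73 counts. The BCAS mice had 3.35, 4.14 and 4.42 CPM, from 109, 125 and 138 counts. The groups did not overlap, with means of 2.49 ± 0.330 and 3.97 ± 0.554 CPM (SD, n = 3). Gadd45a rose by 0.67 on the log2 scale (SE 0.21, interval 0.20 to 1.15; edgeR adjusted p = 0.0386). The call is lost without any 1 of Sham mice 1, 2 and 3 and BCAS mice 2 and 3, where the adjusted p was 0.0679 to 0.129 and the log2 fold change 0.57 to 0.75, and with the replicate number as a block (edgeR adjusted p = 0.0892). E230016M11Rik on the opposite strand shares 337 exonic bases with Gadd45a and had 72 to 102 counts per library, and without strand the reads of the shared bases cannot be told apart.

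Sesn2 (ENSMUSG00000028893.8, chr4:132492032-132510501, minus strand) encodes a sestrin, a p53 target that restrains mTORC1 under stress. Its levels were 18.8, 18.7 and 20.2 CPM in Sham mice and 16.9, 20.2 and 18.9 CPM in BCAS mice. The BCAS mice spanned the whole Sham range. The log2 fold change was -0.043 (SE 0.11), with an interval of -0.29 to 0.20, and did not pass the test (edgeR adjusted p = 0.797). Its sign changed between alternatives, from -0.11 to 0.033.

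**Figure D3:**
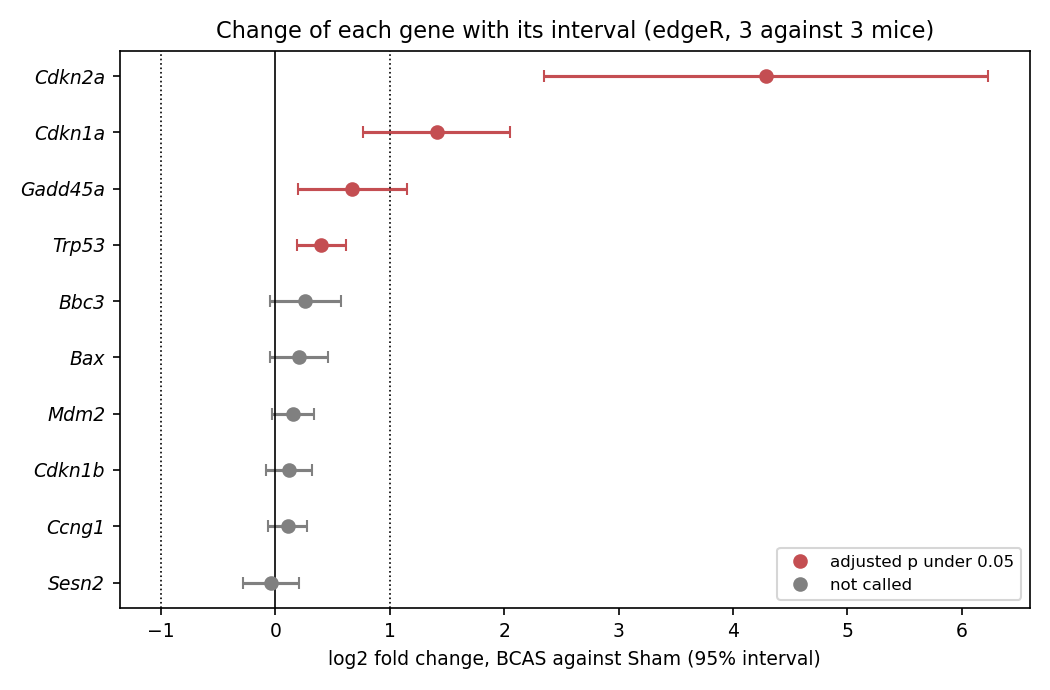
Fitted log2 fold change of each member, BCAS against Sham, with its 95% interval from edgeR (3 against 3 mice); red marks an adjusted p under 0.05, and dotted lines mark log2 fold changes of -1 and 1. The intervals of the 4 members that rose lie above 0 and those of the other 6 include 0; the fitted value of Cdkn2a depends on the prior count, because the Sham mice had 0 to 2 counts.

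Bax (ENSMUSG00000003873.11, chr7:45461697-45466898, minus strand), the p53 target that opens the outer mitochondrial membrane in apoptosis, had 17.9, 20.2 and 22.8 CPM in Sham mice. The BCAS mice had 24.2, 23.4 and 22.9 CPM. The groups did not overlap, by a narrow margin between Sham mouse 3 and BCAS mouse 3. Means were 20.3 ± 2.44 and 23.5 ± 0.640 CPM (SD, n = 3), and the log2 fold change of 0.21 (SE 0.11, interval -0.045 to 0.46) did not pass the test (edgeR adjusted p = 0.189).

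Bbc3 (ENSMUSG00000002083.13, chr7:16308393-16318205, plus strand) encodes PUMA, a BH3-only protein that blocks the anti-apoptotic members of the BCL-2 family. Sham mice had 11.3, 10.1 and 13.8 CPM and BCAS mice had 13.7, 14.6 and 13.8 CPM. The BCAS mice were close to each other, and Sham mouse 3 lay among them. The log2 fold change of 0.26 (SE 0.14) had an interval of -0.050 to 0.57 and did not pass the test (edgeR adjusted p = 0.182).

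Bax was also set against the anti-apoptotic gene Bcl2 within each mouse. Bcl2, named here after its values were seen, rose from 15.0, 16.2 and 13.6 CPM in Sham mice to 24.8, 23.3 and 30.2 CPM in BCAS mice (log2 fold change 0.81; edgeR adjusted p = 0.00203). The log2 ratio of Bax to Bcl2 was 0.43 ± 0.26 in Sham and -0.14 ± 0.22 in BCAS mice (SD, n = 3), lower in all 3 BCAS mice by 0.57 on the log2 scale. For Bbc3 against Bcl2l1, which encodes BCL-XL, the log2 ratio was -3.08 ± 0.23 in Sham and -2.68 ± 0.020 in BCAS mice, higher in all 3 BCAS mice by 0.40 on the log2 scale. Both ratios had an exact permutation p of 0.1, which is the smallest this design can give.

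Per kilobase of exon, the order of the mean levels in Sham mice was Ccng1 at 31.4 CPM per kb, Bax at 12.9, Cdkn1b at 11.6, Mdm2 at 9.92, Trp53 at 6.07, Sesn2 at 5.53, Bbc3 at 5.53, Cdkn1a at 1.77, Gadd45a at 1.41 and Cdkn2a at 0.0166 CPM per kb. The ranges of Bax and Cdkn1b overlapped, as did those of Trp53 and Sesn2 and of Sesn2 and Bbc3. In BCAS mice the order was the same except that Bbc3, at 6.62 CPM per kb, stood above Sesn2, at 5.37. Cdkn1a averaged 4.71 CPM per kb in BCAS mice, and its 3 mice ran from 2.99 to 7.06, below and above the ranges of Sesn2 (4.86 to 5.82) and Bbc3 (6.47 to 6.88). Cdkn2a, at 0.388 CPM per kb, remained the lowest.

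Among 28 other p53 targets, 7 rose and 3 fell, with a median log2 fold change of 0.18, and 5 were up-regulated DEGs, where 18.0% of all tested genes rose, 13.2% fell and 8.47% were up-regulated DEGs. The share that rose, 25.0%, is near that of all tested genes. Fas, a death receptor, rose from 1.27, 1.35 and 1.34 CPM in the Sham group to 5.50, 4.74 and 5.83 CPM in the BCAS group (log2 fold change 2.02; edgeR adjusted p = 1.38e-04). The others were Eda2r, a receptor of the TNF family (2.04; edgeR adjusted p = 0.0135), Gtse1, which binds p53 in G2 (1.85; edgeR adjusted p = 0.00845), Pmaip1, which encodes NOXA (1.59; edgeR adjusted p = 0.00218), and the death receptor Tnfrsf10b (1.12; edgeR adjusted p = 0.0345). Plk2, a kinase also induced by neuronal activity, fell by 0.76 on the log2 scale (edgeR adjusted p = 0.00362), and the metabolic regulator Tigar fell by 0.44 (edgeR adjusted p = 0.013). Without Sham mouse 1, 4 rose, 1 fell and 3 were DEGs; in that fit Eda2r (adjusted p = 0.0614) and Tigar (0.0569) lost their calls. Without BCAS mouse 3 the log2 fold change of Eda2r was 1.34. Tnfrsf10b lost its call without any 1 of Sham mice 1, 2 and 3 and BCAS mice 1 and 3 (adjusted p 0.0549 to 0.131). The call of Tnfrsf10b was also lost with the replicate number as a block.

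Of 17 tested regulators and relatives of p53, 4 rose and 2 fell, with a median of 0.12. The share that rose, 23.5%, is near the 18.0% of all tested genes, of which 13.2% fell. Chek2, the checkpoint kinase that phosphorylates p53, was the DEG among them (log2 fold change 1.18; edgeR adjusted p = 0.0241), and Cop1, a ubiquitin ligase for p53, fell by 0.37 (edgeR adjusted p = 0.00796). The p53 relative Trp63 had a log2 fold change of -0.31 and did not pass the test (edgeR adjusted p = 0.361). Mdm4, the partner of MDM2, rose by 0.38 (edgeR adjusted p = 0.0111) and is named after its values were seen. The number that rose was 1 or 2 without any 1 of Sham mice 1, 2 and 3 and BCAS mouse 3. Chek2 lost its call in the same 4 fits (adjusted p 0.0626 to 0.0907), with a log2 fold change of 0.72 without BCAS mouse 3, under the DEG limit, and Mdm4 lost its call without Sham mouse 2 or 3 (0.0539 to 0.0542). The call of Chek2 was also lost with the replicate number as a block.

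Of the 5 other CDK inhibitors, 1 rose and 1 fell, where 18.0% of all tested genes rose and 13.2% fell. The share that rose, 20%, is near that of all tested genes. Cdkn2c, which encodes p18INK4c, rose from 3.01, 3.17 and 3.67 CPM in Sham mice to 6.46, 5.66 and 12.8 CPM in BCAS mice (log2 fold change 1.34; edgeR adjusted p = 0.0107). Cdkn2d, which encodes p19INK4d, fell from 40.2, 40.7 and 47.8 CPM to 29.9, 32.9 and 29.0 CPM (log2 fold change -0.49; edgeR adjusted p = 0.0067). Cdkn1c (0.75), Cdkn2b (0.45) and Cdkn3 (1.41) did not pass the test, with edgeR adjusted p of 0.172, 0.449 and 0.144 and overlapping groups. Cdkn1c, which encodes p57, was highest in Sham mouse 2 and in BCAS mice 1 and 3, the mice in which the choroid plexus markers summed to 3999, 5801 and 3130 CPM, against 37.1 to 961 CPM in the others, and the part of this tissue was not tested. The log2 fold change of Cdkn1c was 0.42 without BCAS mouse 1 (edgeR adjusted p = 0.481) and 1.06 without BCAS mouse 2 (edgeR adjusted p = 0.0247). Cdkn2c lost its call without Sham mouse 1 (adjusted p = 0.0517) and had a log2 fold change of 0.88 without BCAS mouse 3, where Cdkn3 had 0.66.

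Of the 4 other GADD45 and sestrin genes, 2 rose and 0 fell, where 18.0% of all tested genes rose and 13.2% fell. Gadd45g rose by 0.45 (edgeR adjusted p = 0.0327) and Sesn3 by 0.31 (edgeR adjusted p = 0.0145) on the log2 scale, while Gadd45b (-0.23) and Sesn1 (0.056) did not pass the test, with edgeR adjusted p of 0.207 and 0.576. Gadd45g lost its call without any 1 of Sham mice 1 and 3 and BCAS mice 1 and 3 (adjusted p 0.0858 to 0.118), and Sesn3 without Sham mouse 3 (0.0663). The call of Gadd45g was also lost with the replicate number as a block.

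Of 16 tested BCL-2 family genes, 10 rose, 2 fell and 7 were up-regulated DEGs, beside 18.0%, 13.2% and 8.47% of all tested genes. Of the 10, the 3 near-identical copies Bcl2a1a, Bcl2a1b and Bcl2a1d and the BH3-only gene Bik passed the filter only through the BCAS libraries, so that their calls are no support for a difference. Without these 4, 6 of 12 rose, beside 17.0% of all tested genes chosen in the same way, with a median log2 fold change of 0.44. Of the 12, 3 were up-regulated DEGs, beside 1333 of 18329 genes chosen in the same way. The 3 were Bmf, Bcl2l11 and Pmaip1, the last counted above with the p53 targets. The BH3-only genes Bmf and Bcl2l11, which encodes BIM, rose by 1.93 (edgeR adjusted p = 3.11e-04) and 1.11 (edgeR adjusted p = 8.79e-04). Without BCAS mouse 3, Bcl2l11 still rose, by 0.98. The anti-apoptotic genes Bcl2a1d and Bcl2a1a had 0 to 4 counts per Sham library, about the limit of detection, against 47 to 82 and 49 to 110 counts per BCAS library. Reads that align to more than 1 of these copies were left out of the counts, so the level of each is uncertain, and no fold is given for either. Bok fell by 0.89 (edgeR adjusted p = 0.00354) and Bcl2l2, which encodes BCL-W, by 0.28 (edgeR adjusted p = 0.0177). The call of Bcl2l2 is lost without any 1 of Sham mice 1, 2 and 3 and BCAS mouse 1 (adjusted p 0.0523 to 0.0706).

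**Figure D4:**
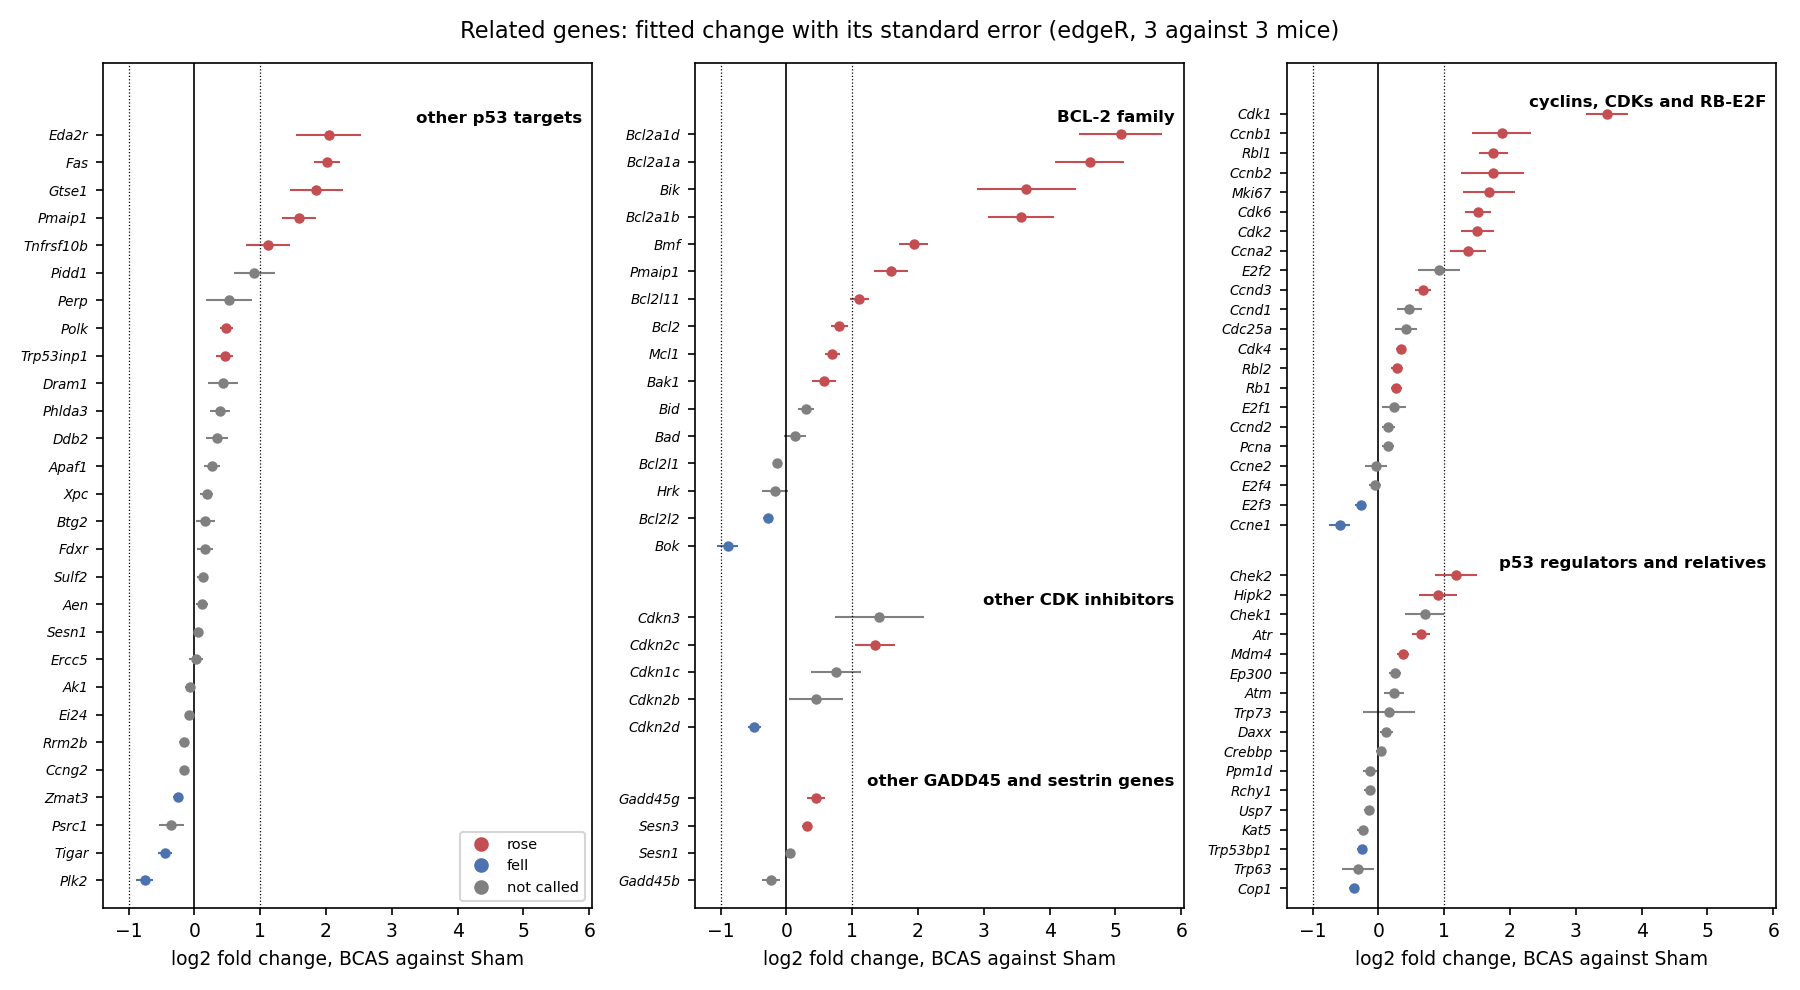
Fitted log2 fold change, BCAS against Sham, with its standard error (edgeR, 3 against 3 mice), for the tested genes of 6 lists related to the members; red rose, blue fell and grey did not pass the test, and dotted lines mark -1 and 1. Red marks 10 of 16 genes of the BCL-2 family, or 6 of 12 without Bcl2a1a, Bcl2a1b, Bcl2a1d and Bik, which passed the filter only through BCAS libraries and whose plotted values depend on the prior count, 7 of 28 other p53 targets and 4 of 17 regulators and relatives of p53 and 12 of 22 cyclins, CDKs and RB and E2F genes, beside 18.0% of all tested genes; differences between lists were not tested.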

How the data were processed

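Right hippocampus RNA of 3 Sham and 3 BCAS mice was sequenced as paired-end reads. After trimming and HISAT2 alignment to mm10, the authors deposited raw counts per gene from featureCounts, not normalised. Per the file headers this was featureCounts 2.0.3 with GENCODE vM20 genes, whereas the methods name 1.6.3 and RefSeq; mates were counted singly, multi-mapping reads were left out and strand was not used.

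Totals were 29652456 to 35607098 counts; limits of 3 counts cover counting error alone. edgeR 4.0.16 in R 4.3.3 was used (filterByExpr, TMM, quasi-likelihood, Benjamini-Hochberg over 18617 genes, no block). DESeq2 1.42.0, limma-voom (limma 3.58.1), RLE, library totals, 2 other filters, glmTreat, counts halved, the replicate number as block and leaving out each mouse were alternatives. Coordinates and overlaps came from the GENCODE vM20 exons deposited with the counts, promoters from RefSeq. Steps were tested on simulated data.

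Members and lists were chosen with earlier results of these data known. All members and all genes of lists of at most 8 were to be named; of longer lists up to 6 DEGs of at least 1 CPM and the 2 lowest log2 fold changes; and the 3 profiles nearest to Cdkn1a. The symbol Trp53rk was not matched in the list of regulators. Marker genes are given as sums. Fold changes of ratios use log2(CPM + 0.5). The qRT-PCR, imaging, histology and single-cell data were not analysed here.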

Additional observations from a re-analysis of the deposited data

How the results depend on the processing

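Over 15 alternatives no log2 fold change that had passed the test changed its sign; it ran from 0.35 to 0.48 for Trp53, 0.99 to 1.65 for Cdkn1a and 0.57 to 0.78 for Gadd45a, and over 13 alternatives from 3.78 to 6.89 (without Sham mouse 3) for Cdkn2a, whose fitted value depends on the prior count and which has too few counts for a mean of 10 counts or for counts halved. The glmTreat test asks whether a change exceeds a log2 fold change of 1. Under it Trp53 (0.40), Cdkn1a (1.41, glmTreat adjusted p = 0.427) and Gadd45a (0.67) lost their calls. The 1 member that still rose, as an up-regulated DEG, was Cdkn2a. It passed the filter only through the BCAS libraries, so that this call is no support for a difference. Of all genes, 804 rose and 14 fell under glmTreat, all of them DEGs. The number of up-regulated DEGs among members was 1 with a mean of at least 10 counts and with counts halved. Leaving out each mouse, the log2 fold change was 0.35 to 0.45 for Trp53 and 0.57 to 0.78 for Gadd45a, 2 to 4 members rose (2 without Sham mouse 2), and 1 or 2 were up-regulated DEGs (1 without BCAS mouse 3). Over all genes 2453 to 3554 then rose, 1260 to 3092 fell (1450, 1412 and 1260 without Sham mouse 1, 2 and 3), 1210 to 1746 were up-regulated DEGs and 96 to 238 down-regulated DEGs (96 without BCAS mouse 3 and 117 without Sham mouse 3). With the replicate number as a block, Gadd45a had 0.67 (adjusted p = 0.0892), Trp53 0.40 (0.0295), and Cdkn1a 1.33 (0.00637), and 3 members rose. Numbers here are those of the sample titles, by which deviations of Sham and BCAS mice of the same number correlated at 0.0476, -0.392 and -0.194, so they were not taken to pair the mice. Inside the BCAS tables the columns carry numbers 2 to 4, by which Sham 2 and 3 would meet BCAS mice 1 and 2 (0.281 and 0.432), and no block was fitted on those. The 4 ratios kept their sign with a pseudocount of 2 and without each mouse. With library totals the median of all genes was 0.094. Depth limits Cdkn2a. Gadd45a kept its call with counts halved (edgeR adjusted p = 0.0371). Halving divides and rounds the counts and adds no counting noise, so it cannot show what lower depth would do.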

Other observations

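Of 22 cyclins, CDKs and members of the RB and E2F families, 12 rose and 2 fell, with a median log2 fold change of 0.44, and 8 were up-regulated DEGs, where 18.0% of all tested genes rose, 13.2% fell and 8.47% were up-regulated DEGs. Cdk1, the kinase of mitotic entry, rose from 0.354, 0.359 and 0.437 CPM in Sham mice to 3.78, 3.25 and 5.89 CPM in BCAS mice (log2 fold change 3.48; edgeR adjusted p = 1.14e-04). The proliferation marker Mki67 rose from 2.01 to 3.38 CPM in Sham mice to 7.41, 4.41 and 14.0 CPM in BCAS mice (1.69; edgeR adjusted p = 0.0122). Also up were the mitotic cyclins Ccnb1 (1.88; edgeR adjusted p = 0.0133) and Ccnb2 (1.74; edgeR adjusted p = 0.0244), the RB relative Rbl1 (1.75; edgeR adjusted p = 5.71e-04) and Cdk6 (1.52; edgeR adjusted p = 6.10e-04). Ccne1 fell by 0.59 (edgeR adjusted p = 0.0216) and E2f3 by 0.26 (edgeR adjusted p = 0.041). BCAS mouse 3 was the highest of the 6 mice in 15 of the 22 genes, against only 27.2% of all tested genes. BCAS mouse 3 also had the highest sum of microglia markers, whose part in these values was not tested. Leaving out Sham mouse 3, 7 genes of the list rose, and 5 were up-regulated DEGs without Sham mouse 1 or 3. With the replicate number as a block, the calls of Ccnb2 and E2f3 were lost, and also those of Rb1 and Rbl2, which are among the 12 that rose. Rb1 and Rbl2 each lost their call in 5 of the 6 fits that left out 1 mouse. In fits that left out 1 mouse, the calls of Ccnb1 and Mki67 were lost without Sham mouse 1 or 3 (adjusted p 0.0512 to 0.0582), that of Ccnb2 without any 1 of Sham mice 1, 2 and 3 and BCAS mouse 3 (0.057 to 0.0948; 1.11 on the log2 scale without BCAS mouse 3), that of Ccne1 without any 1 of Sham mice 2 and 3 and BCAS mice 1 and 3 (0.0621 to 0.0794), and that of E2f3 in 5 of the 6 (0.0544 to 0.132, the exception being without BCAS mouse 1).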
